A study of Mus musculus with 4 samples.

Results

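Myostatin (Mstn), growth differentiation factor 11 (Gdf11) and the activins form 1 branch of the TGF-beta superfamily, and 10 genes of this branch are described here among the 25239 gene IDs of the data. They are the ligand genes Mstn, Gdf11, Inhba and Inhbb, the antagonist genes Fst and Fstl3, the type II receptor genes Acvr2a and Acvr2b, and the type I receptor genes Acvr1b and Tgfbr1. The genes were chosen by name around Mstn, with its difference between these same libraries already known. Their differences between the groups are therefore given as a description, without a test. Each of the 10 genes stood on a single row in every library.

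The RNA came from retina dissected from mouse embryos at day E13.5 of embryonic development, sequenced in 4 libraries. The control group had 2 libraries with the genotype given as control, and the other group had 2 libraries with the genotype given as Isl1cKO, retina that the series calls Isl1-null. Isl1 encodes a LIM-homeodomain transcription factor of developing ganglion cells and other neurons. The labels give no strain, no Cre driver, no control alleles and no number of embryos per library. Whether the 2 libraries of a group came from separate embryos is not stated either, so every p-value below measures the spread between these libraries.

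The ligands of this branch are made as precursors that proteases cut to release a mature dimer. The dimer joins type II receptors to type I receptors, which phosphorylate Smad2 and Smad3. Follistatin, encoded by Fst, and its relative Fstl3 bind the ligands and keep them from their receptors. Myostatin is best known for limiting the growth of skeletal muscle. Gdf11, its closest paralog, is known in the embryonic retina as a signal that limits how long progenitors produce ganglion cells.

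Levels are deposited TPM (transcript abundances), scaled to transcript length and to a fixed sum per library, so that genes can be compared. Isl1 itself read 242 and 201 TPM in control replicates 1 and 2, against 321 and 223 TPM in the libraries labelled Isl1cKO. The ranges overlapped, and limma gave a log2 fold change of 0.28 (SE 0.21) and an adjusted p of 0.683. The labelled loss was therefore not visible in the level of the Isl1 transcript, and every direction below rests on the labels. Retinal identity was clear in each library, as 10 progenitor markers that include Rax and Pax6 summed to between 5870 and 6590 TPM. Aligned sequence, derived from coverage and FPKM, ranged from 12.6 to 14.3 gigabases and was lowest in Isl1cKO replicate 2.

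Mstn and Gdf11 are shown first by the 250 bases before their transcription start sites, because the lowest and the highest ratio between the groups were those of these paralogs. The RefSeq windows (assembly GRCm38.p6) are chr1:53061390-53061639 on the plus strand for Mstn and chr10:128891719-128891968 on the minus strand for Gdf11. Both end at the base before the start site in the authors' tables. Capitals mark the runs of at least 8 letters that the windows share when laid against each other without gaps.
Mstn: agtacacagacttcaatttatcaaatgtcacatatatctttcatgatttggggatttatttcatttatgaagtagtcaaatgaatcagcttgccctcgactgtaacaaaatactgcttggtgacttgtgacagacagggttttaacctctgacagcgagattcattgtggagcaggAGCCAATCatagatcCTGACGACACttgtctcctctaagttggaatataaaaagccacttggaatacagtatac
Gdf11: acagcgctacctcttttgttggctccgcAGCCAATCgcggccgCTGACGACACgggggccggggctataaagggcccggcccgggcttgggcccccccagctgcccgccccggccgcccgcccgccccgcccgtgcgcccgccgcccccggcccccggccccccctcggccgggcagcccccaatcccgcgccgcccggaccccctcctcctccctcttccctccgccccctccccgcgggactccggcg

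The alignment with the most letters in such runs held 2 of them, AGCCAATC and CTGACGACAC, 8 and 10 letters long. Exactly 7 letters separated the runs in both genes. In Mstn the pair spanned positions 74 to 50 before the start site, and in Gdf11 it lay farther out, from 222 to 198. On both strands of the 32851 RefSeq windows of this length, AGCCAATC occurred in 3.62% and CTGACGACAC in 0.0365%, and the spaced pair was found in 2 windows, those of Mstn and Gdf11. AGCCAATC contains the letters CCAAT, which occurred in 33.8% of windows. The letters TATAAA occurred in 12.4% of windows and followed the pair in both genes, at 29 bases before the start of Mstn and at 185 before that of Gdf11. The runs were taken from these 2 windows, so their presence in both was fixed in advance, and the shares are no test. The comparison was made after the windows had been looked at, and a match of letters is a description, not a binding site.

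Around these letters the windows were unlike. G and C made up 38.4% of the Mstn window and 81.2% of the Gdf11 window, against a median of 52.4% over all windows. The Mstn window held 3 CG pairs and that of Gdf11 held 33. Windows were found for 9 of the 10 genes. Among these, Inhba resembled Mstn, with 43.2% G and C and 3 CG pairs, while the other 6 lay between 68.0% and 82.0%. TAAT, the core read by many homeodomain proteins, occurred in 54.9% of all windows (either strand) and, among the 9, in that of Inhba alone. The E-box letters CANNTG occurred in 66.2% of windows and in those of Mstn, Gdf11, Fstl3 and Acvr1b.

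Mstn transcripts were nearly absent from the libraries labelled Isl1cKO. The gene (chromosome 1, 53061640 to 53068079, plus strand, mm10) measured 8.54 and 7.23 TPM in control replicates 1 and 2. In Isl1cKO replicates 1 and 2 only 0.0563 and 0.0157 TPM were left. Both values labelled Isl1cKO lay far below both controls, while the controls differed from each other by 1.18-fold. The group means were 7.89 ± 0.924 and 0.0360 ± 0.0287 TPM (SD, n = 2 each). Their ratio was 219, and the difference on the log2(TPM + 1) scale was -3.10. In bulk tissue, fewer cells that make a transcript and less of it per cell cannot be told apart.

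The depth behind these values is visible in the deposited coverage, the mean number of reads over a base of the gene. For Mstn it was 44.8 and 35.7 in the controls, against 0.301 and 0.0776 in Isl1cKO replicates 1 and 2. The longest annotated protein-coding transcript of the gene, Mstn-201, is 2705 bases long, and the coverage was assumed to refer to it. Multiplied by that length, the coverage corresponds to 121141 and 96697 aligned bases in the controls and to 813 and 210 aligned bases in the libraries labelled Isl1cKO. The aligned bases in the latter were fewer than 1 pass over the transcript, so the ratio of 219 is imprecise. With a pseudocount of 0.1 TPM in place of 1 TPM the log2 difference was -5.89. On FPKM, with 1 FPKM added, it was -1.95. FPKM values were smaller than TPM in these libraries, so there the added 1 weighed more, and -1.95 does not mean a smaller loss.

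Gdf11 (chromosome 10, 128880524 to 128891718, minus strand) was present at a similar level in all 4 libraries. It had 44.1 and 47.1 TPM in control replicates 1 and 2, against 51.6 and 50.8 TPM in the Isl1cKO pair. Both libraries labelled Isl1cKO lay above both controls, by a ratio of means of 1.12. The means were 45.6 ± 2.11 and 51.2 ± 0.564 TPM (SD, n = 2 each), and the log2 difference was 0.17. The Mstn and Gdf11 transcripts are distinct enough to be told apart by reads, since their longest identical stretch was 12 bases.

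The activin genes were scarcely transcribed. Inhba (chromosome 13, 16011851 to 16031609, plus strand), which encodes the chain of activin A, stood at 0.172 and 0.224 TPM in the controls, against 0.190 and 0.0970 TPM in Isl1cKO replicates 1 and 2. Inhbb (chromosome 1, 119415463 to 119422248, minus strand), which encodes the chain of activin B, read 0.495 and 0.846 TPM in the controls, against 0.567 and 0.324 TPM in Isl1cKO replicates 1 and 2. In both genes the ranges of the groups overlapped and the lowest value was that of Isl1cKO replicate 2. Inha, whose product turns activin chains into inhibin, was not among the 10 genes and read 10.6 and 12.7 TPM in the controls, beside 12.3 and 13.8 TPM in Isl1cKO replicates 1 and 2.

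**Figure D1:**
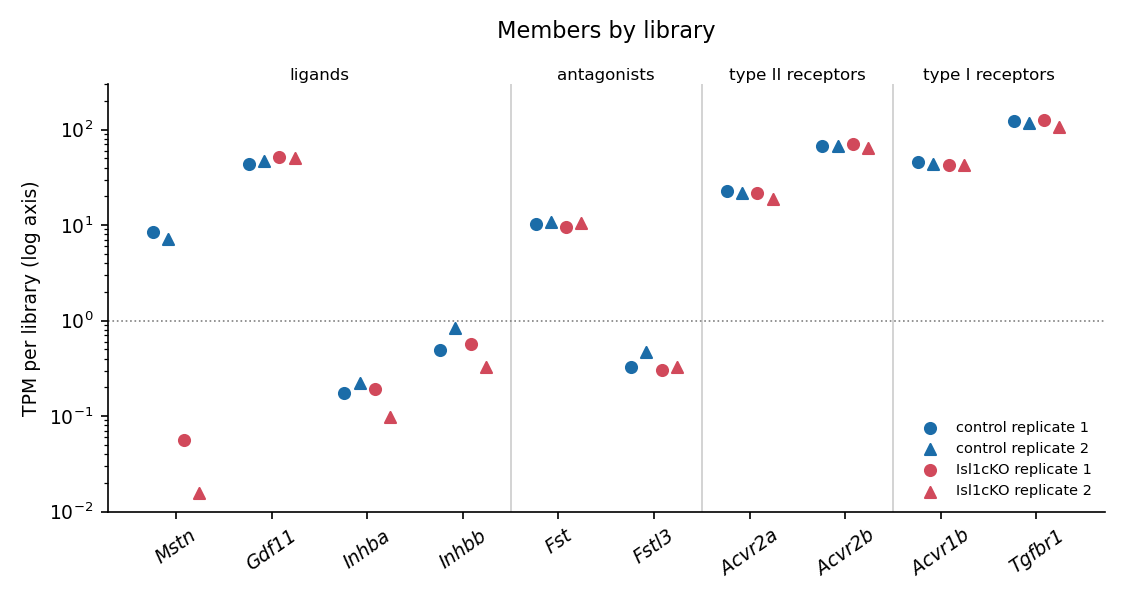
TPM of the 10 genes in each library on a log axis, grouped by role, with blue for control, red for Isl1cKO, circles for replicate 1, triangles for replicate 2 and a dotted line at 1 TPM. The groups lie farthest apart for Mstn, with controls at 8.54 and 7.23 TPM and Isl1cKO at 0.0563 and 0.0157 TPM.

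Gdf11 supplied most of the ligand transcripts in every library. Its share of the TPM of the 4 ligand genes was 82.7% and 85.0% in the controls and 98.4% and 99.1% in Isl1cKO replicates 1 and 2. The Mstn share was 16.0% and 13.1% in the controls, and 0.107% and 0.0306% in the libraries labelled Isl1cKO. Inhba and Inhbb together made up between 0.823% and 1.93%. The sum over the 4 genes was 53.3 and 55.4 TPM in the controls, against 52.4 and 51.2 TPM in Isl1cKO replicates 1 and 2, lower in both of the latter by less than the loss of Mstn, as Gdf11 was higher. Mstn and Gdf11 together came to 53.5 ± 1.18 TPM in control and 51.2 ± 0.593 TPM in the libraries labelled Isl1cKO (SD, n = 2 each).

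**Figure D2:**
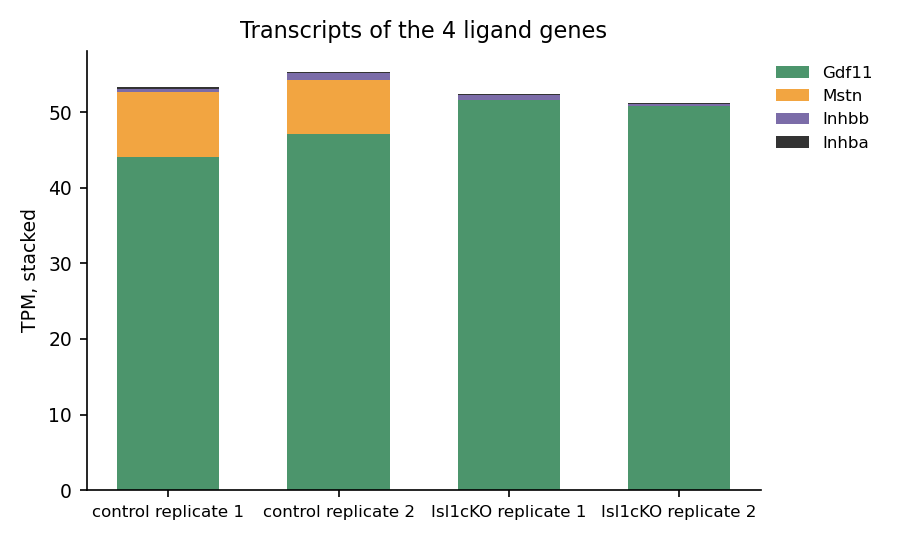
Stacked TPM of Gdf11, Mstn, Inhbb and Inhba in each of the 4 libraries. Mstn fills 16.0% and 13.1% of the control bars and is too small to see in the Isl1cKO bars, while Gdf11 fills 82.7% to 99.1% of every bar.

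Of the antagonists, Fst carried nearly all transcripts. Fst (chromosome 13, 114452262 to 114458951, minus strand) measured 10.2 and 10.8 TPM in the controls, against 9.61 and 10.6 TPM in Isl1cKO replicates 1 and 2. The ranges overlapped, and the log2 difference was -0.05. Fstl3 (chromosome 10, 79777274 to 79782630, plus strand) had 0.323 and 0.470 TPM in the controls, against 0.303 and 0.323 TPM in the libraries labelled Isl1cKO. Its highest Isl1cKO value and its lowest control value were the same to 3 digits. The ratio of Gdf11 to Fst was 4.32 and 4.36 in the controls, against 5.37 and 4.77 in Isl1cKO replicates 1 and 2, higher in both of the latter.

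All 4 receptor genes were expressed, with little difference between the groups. Acvr2b (chromosome 9, 119402178 to 119442148, plus strand), the type II receptor with a known preference for myostatin and Gdf11, stood at 67.4 and 66.9 TPM in the controls, against 70.1 and 63.9 TPM in Isl1cKO replicates 1 and 2. Acvr2a (chromosome 2, 48814109 to 48903264, plus strand) read 22.9 and 21.9 TPM in the controls, against 21.8 and 18.9 TPM in the libraries labelled Isl1cKO. The control values of Acvr2b lay inside the Isl1cKO range, and those of Acvr2a lay just above it. Acvr2b exceeded Acvr2a by between 2.95 and 3.38 times in every library.

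Acvr1b (chromosome 15, 101174072 to 101213684, plus strand), the activin type I receptor, measured 46.1 and 43.9 TPM in the controls, against 42.6 and 42.5 TPM in Isl1cKO replicates 1 and 2. Tgfbr1 (chromosome 4, 47353222 to 47414924, plus strand), which serves TGF-beta, Gdf11 and myostatin, had 122 and 117 TPM in the controls, against 125 and 106 TPM in Isl1cKO replicates 1 and 2. Both control values of Acvr1b were above both Isl1cKO values, with a log2 difference of -0.08, while the Tgfbr1 controls lay inside the Isl1cKO range. The Tgfbr1 level depends on which deposited column is read. Its TPM was 2.23 times the value that its coverage gives on the TPM scale, which was 53.6 ± 1.63 in control and 52.0 ± 5.96 in the libraries labelled Isl1cKO (SD, n = 2 each), whereas for Mstn and Gdf11 the columns gave the same values to 3 digits. The cause of that gap was not tested.

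In control retina the order of mean TPM was Tgfbr1, Acvr2b, Gdf11, Acvr1b, Acvr2a, Fst, Mstn, Inhbb, Fstl3 and Inhba. Gdf11 and Acvr1b, at 45.6 and 45.0 TPM, were the only neighbours in this order whose ranges overlapped. By coverage, Tgfbr1 ranked between Acvr2b and Gdf11. In the libraries labelled Isl1cKO the order was the same apart from Mstn, which moved from the seventh place to the last, and no neighbours overlapped. Relative to all listed genes, the control mean of Mstn exceeded that of 58.4% of genes, that of Gdf11 81.6% and that of Tgfbr1 93.6%.

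Across all genes, log2(TPM + 1) was fitted with limma for the 13984 genes with at least 1 TPM in at least 2 libraries, and 69 had an adjusted p-value under 0.05 (0.493%). Of the 10 genes, 7 passed that filter, and Inhba, Inhbb and Fstl3 did not. Mstn passed it through the control libraries alone. It was also the 1 gene of the 7 below the adjusted threshold, which only describes how the set was chosen. Among the 7, the groups did not overlap with Isl1cKO lower in 3 (Mstn, Acvr2a and Acvr1b), as in 30.0% of all tested genes. They did not overlap with Isl1cKO higher in 1 (Gdf11), as in 14.9% of all tested genes. Apart from Mstn, the log2 differences of the 10 genes lay between -0.21 for Inhbb and 0.17 for Gdf11. For Inhba, Inhbb and Fstl3 the added 1 TPM exceeds the values themselves and keeps these differences small. With a pseudocount of 0.1 TPM they were -0.315, -0.496 and -0.25. Isl1cKO replicate 2 held the lowest value of 7 of the 10 genes. The sign of the small differences of Acvr2b, Fst and Tgfbr1 depended on the scaling, and with median-ratio scaling they were 0.051, 0.002 and 0.006.

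Other cell types were read from marker lists. Skeletal muscle, the tissue in which Mstn is best known, was almost absent from all libraries. Its 20 markers, structural and regulatory muscle genes, summed to 6.98 and 6.26 TPM in the controls, against 8.59 and 5.54 TPM in Isl1cKO replicates 1 and 2. These sums overlapped, 18 of the 20 markers stayed below 1 TPM in every library, and Myod1 and Myf5, defining regulators of muscle, were listed at 0 in 3 and 2 libraries. Myog ranged from 0.0387 to 0.316 TPM and was higher in both libraries labelled Isl1cKO. Mstn, at 8.54 and 7.23 TPM in the controls, exceeded the sum of the whole muscle list there. The part of muscle cells in the Mstn level was not tested.

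The 20 ganglion cell markers summed to 4110 and 3540 TPM in the controls, against 2100 and 1490 TPM in Isl1cKO replicates 1 and 2. Of the 20, 18 were lower in both of the latter, against 30.0% of all tested genes. Pou4f2, a defining transcription factor of ganglion cells, did not share this direction, at 126 and 124 TPM in the controls, against 135 and 120 TPM in the libraries labelled Isl1cKO. Pou4f1 stood at 19.6 and 19.7 TPM in the controls, against 9.66 and 4.16 TPM in Isl1cKO replicates 1 and 2, and Pou4f3 was listed at 0 in Isl1cKO replicate 2. In the all-gene fit 3 of the 20 markers passed, against 0.493% of all tested genes. They were Irx2, Irx3 and Nell2, with log2 fold changes of -1.26, -3.11 and -3.04. The list was written with earlier results of these data known. Both counts therefore also reflect how its genes were chosen, and they are no test of the cell type. The part of these cells in the Mstn level was not tested.

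The 10 lens markers, which include Cryaa, Cryba1 and Crygb, summed to 167 and 202 TPM in the controls, against 10.4 and 7.81 TPM in Isl1cKO replicates 1 and 2. Of these 10, 9 could be tested and 5 passed in the all-gene fit, against 0.493% of all tested genes. This list, too, was written with earlier results of these data known, so that count is a description. Crygb, Lim2 and Foxe3 were listed at 0 in at least 1 library. The 7 red blood cell markers summed to 2010 and 2870 TPM in the controls, against 892 and 111 TPM in Isl1cKO replicates 1 and 2, and none of the 6 that could be tested passed. Periocular mesenchyme (15.2 to 27.2 TPM over 10 markers), pigment epithelium (23.6 to 42.3 over 8) and endothelium (59.2 to 85.1 over 6) were each highest in control replicate 1 and lowest in Isl1cKO replicate 2. In each of these lists both Isl1cKO sums lay below both control sums. Kdr made up most of the endothelium sum, at 69.0 and 57.0 TPM in the controls, against 56.7 and 55.5 TPM in Isl1cKO replicates 1 and 2. Pecam1, Cdh5, Tie1 and Emcn were low and differed between the controls. They read 2.45, 2.55, 1.80 and 2.16 TPM in control replicate 1, against 0.592, 0.357, 0.336 and 0.383 TPM in control replicate 2. Cldn5 differed less, at 7.20 and 5.36 TPM in the controls. Of the defining markers of these lists, Rpe65, Cdh5, Tie1 and Emcn were listed at 0 in at least 1 library, as was Hbb-bs of the red blood cell list. Their part in the Mstn level was not tested.

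**Figure D3:**
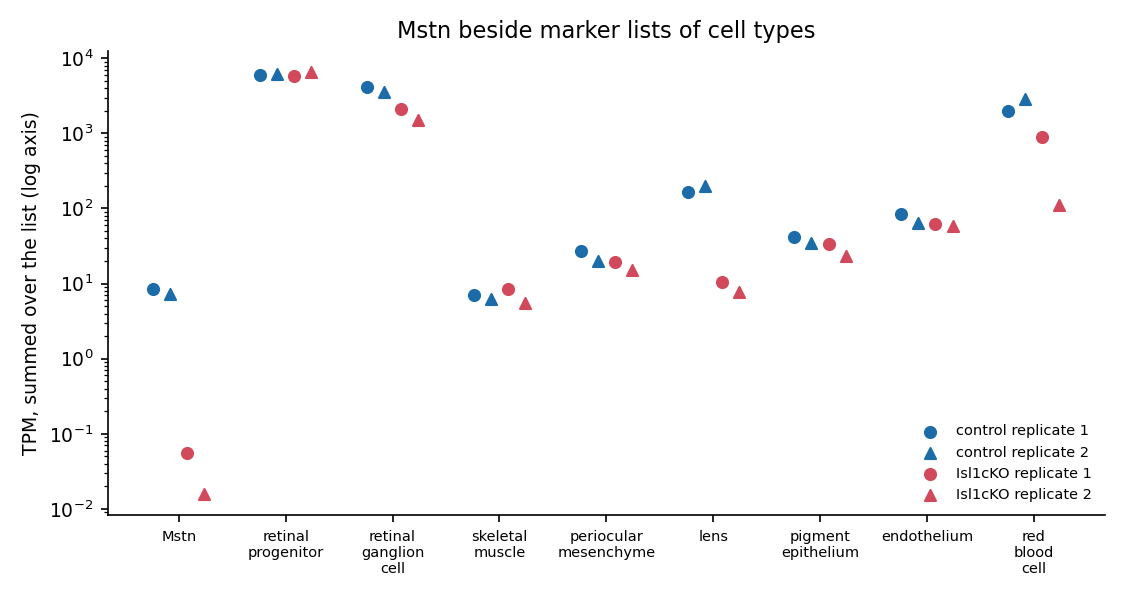
Mstn and the summed TPM of the marker lists in each library on a log axis, with blue for control, red for Isl1cKO, circles for replicate 1 and triangles for replicate 2. The muscle sums of the groups overlap between 5.54 and 8.59 TPM, the ganglion cell sums run from 4110 down to 1490 TPM, and the lens sums from 202 down to 7.81 TPM.

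The profiles most like that of Mstn over the 4 libraries were those of Irx3, Cryba4, Irx5, Nell2 and Ret. Likeness was the Euclidean distance between log2(TPM + 1) values centred over the 4 libraries, and it follows the difference between the groups. The distances ran from 0.186 for Irx3 to 0.366 for Ret. Irx3, an Iroquois homeobox gene, read 28.6 and 22.1 TPM in the controls, against 1.86 and 2.20 TPM in Isl1cKO replicates 1 and 2. Ret, the receptor tyrosine kinase for GDNF ligands, measured 30.8 and 24.0 TPM in the controls, against 3.53 and 2.68 TPM in the libraries labelled Isl1cKO. Cryba4 is a lens crystallin gene, at 9.15 TPM in both controls and 0.442 and 0.336 TPM in Isl1cKO replicates 1 and 2. None of these 5 came as near to 0 TPM as Mstn, although their log2 differences, from -2.79 to -3.20, bracket its own. The selection depends on that pseudocount: at 0.1 TPM none of the 5 was kept, and on FPKM Cryba4 alone was.

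The position of Mstn was not used to choose it, so its neighbours were tested in the same fit. Of 13 other genes within 500 kb of it on chromosome 1, 9 could be tested and 1 passed, against 0.493% of all tested genes. That gene was 1700019D03Rik (52922324 to 52992657, minus strand), the nearest neighbour before the Mstn start, 69.0 kb away and transcribed in the opposite direction. It had 4.21 and 4.32 TPM in the controls, against 0.708 and 0.265 TPM in Isl1cKO replicates 1 and 2. Like Mstn, it could be tested only through its level in the control libraries. In limma it fell by 1.84 on the log2 scale (SE 0.16, adjusted p-value 0.0455), and both Isl1cKO values lay below both controls.

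That call was close to the threshold and was lost with no filter on low values (adjusted p-value 0.153), at a pseudocount of 0.1 TPM (0.169) and without Isl1cKO replicate 2 (0.0675); its alternatives spanned 0.0117 to 0.169. Without either control replicate, or at a filter of 5 TPM, it could not be tested. Next on that side, Hibch, an enzyme of valine breakdown 140.7 kb away, averaged 26.9 ± 2.28 TPM in control and 25.0 ± 1.53 TPM under the Isl1cKO label (SD, n = 2 each), with an adjusted p of 0.756 by limma. Farther out on that side, Inpp1 and Mfsd6 were lower in both libraries labelled Isl1cKO, by log2 fold changes of -0.46 and -0.66 with adjusted p-values of 0.338 and 0.275 in limma.

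On the other side of Mstn the tested genes gave log2 fold changes between -0.07 and 0.03. The nearest, 1700019A02Rik at 90.5 kb, was too low to test, at 1.12 and 0.776 TPM in the controls, against 0.805 and 0.128 TPM in Isl1cKO replicates 1 and 2. Beyond it, Pms1, a DNA mismatch repair gene 121.1 kb away, read 18.9 ± 1.69 TPM in control and 18.2 ± 1.56 TPM in the libraries labelled Isl1cKO (SD, n = 2 each). Ormdl1, Osgepl1 and Asnsd1 followed, with adjusted p-values between 0.787 and 0.941 in limma. The lowest log2 differences in this stretch were those of Mstn, whose difference was known beforehand, and the gene just before it. The next tested genes out, Hibch and Pms1, gave -0.10 and -0.05. Lower values were not confined to the nearest gene, as Mfsd6 and Inpp1 gave -0.66 and -0.46, and the untested 1700019A02Rik gave -0.44. Of the 9 tested neighbours, 3 had an unadjusted p-value under 0.05 in limma, against 12.1% of all tested genes.

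**Figure D4:**
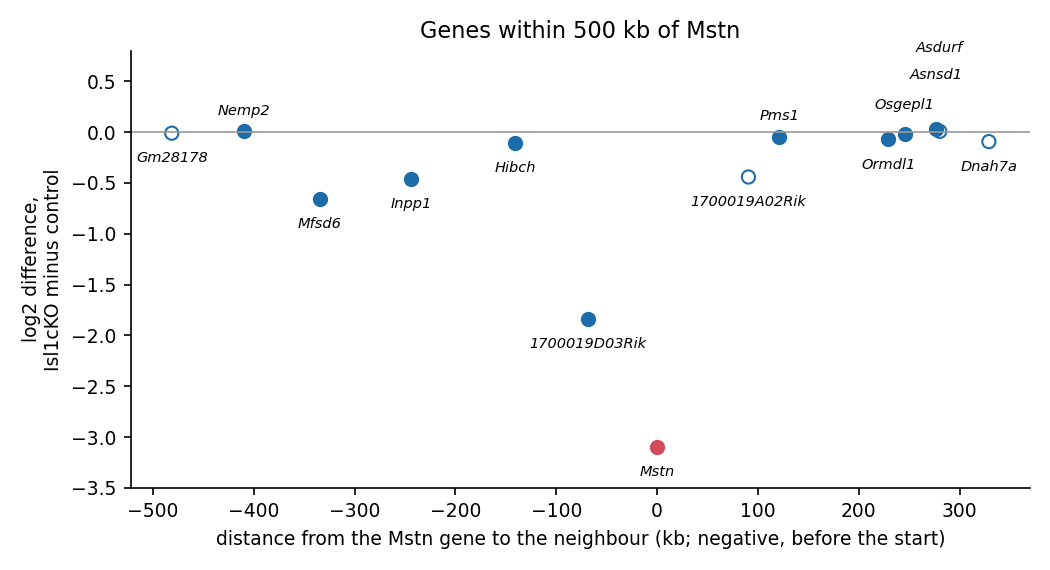
Log2 difference (Isl1cKO minus control, on the log2(TPM + 1) scale) of each gene within 500 kb against its distance from Mstn in kb, negative before the start, with filled points for tested genes and open points for genes too low to test. Mstn (red) is at -3.10 and 1700019D03Rik at -1.84, while the genes after Mstn that could be tested lie between -0.07 and 0.03.

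The rest of the pathway was read from a list of 66 genes in 7 roles, of which 51 could be tested. None passed at an adjusted p-value under 0.05 in limma, and 5 had an unadjusted p-value under 0.05, 4 lower and 1 higher, against 12.1% of all tested genes. Of the 51, 26 were lower and 25 higher, with a median log2 fold change of -0.004, beside -0.05 over all tested genes. The range was -0.67 to 0.49.

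Among the proteases, Furin and its relatives cut the ligand precursors, and Bmp1, Tll1 and Tll2 cut the myostatin and Gdf11 propeptides that hold the mature dimer latent. Tll1 measured 10.7 and 7.81 TPM in the controls, against 6.80 and 4.19 TPM in Isl1cKO replicates 1 and 2, a log2 fold change of -0.67 (SE 0.25, adjusted p-value 0.412 in limma). Bmp1, at 26.7 ± 1.45 TPM in control and 25.5 ± 3.31 TPM in the libraries labelled Isl1cKO (SD, n = 2 each), overlapped between the groups. Furin had 18.7 TPM in both controls and at 17.7 and 15.1 TPM in Isl1cKO replicates 1 and 2, and Pcsk7 at 18.9 ± 0.119 and 15.6 ± 1.69 TPM (SD, n = 2 each). Both were lower in both libraries labelled Isl1cKO, with adjusted p-values of 0.582 and 0.433 in limma.

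Other ligands that reach Smad2 and Smad3 were also present. Tgfb2 was the most abundant of them, at 55.8 ± 0.606 TPM in control and 55.7 ± 4.42 TPM in the libraries labelled Isl1cKO (SD, n = 2 each). Tgfb3 stood at 9.94 and 9.70 TPM on average, and Tgfb1 at 1.28 ± 0.622 and 1.88 ± 0.101 TPM (SD, n = 2 each). The log2 fold change of Tgfb1, 0.36, was the largest of this role (adjusted p-value 0.579 in limma). The receptor Tgfbr2, which binds the TGF-beta ligands, was low at 1.89 and 1.98 TPM on average.

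Of the other binding proteins, Ltbp1, which anchors latent TGF-beta in the matrix, read 13.6 TPM in both controls and at 16.3 and 23.4 TPM in Isl1cKO replicates 1 and 2. Bambi, a decoy receptor, measured 6.48 and 8.44 TPM in the controls, against 5.44 and 4.73 TPM in the libraries labelled Isl1cKO. Neither passed, with adjusted p-values of 0.412 and 0.345 in limma. Grem1, an antagonist of BMPs, overlapped between the groups, with means of 1.65 and 0.962 TPM. Among the receptors of related ligands, Bmpr1b had 26.0 and 30.9 TPM in the controls, against 33.8 and 46.9 TPM in Isl1cKO replicates 1 and 2, and Bmpr2 had means of 32.1 and 26.3 TPM. Their adjusted p-values were 0.438 and 0.624 in limma.

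Smad2, an effector that the type I receptors phosphorylate, had the smallest adjusted p-value of the list. It stood at 64.8 and 59.3 TPM in the controls, against 44.9 and 36.7 TPM in Isl1cKO replicates 1 and 2. Both Isl1cKO values lay below both controls, but the log2 fold change of -0.60 (SE 0.13) did not pass in limma (adjusted p-value 0.220). Its partner Smad3 read 44.9 ± 1.80 TPM in control and 48.6 ± 3.73 TPM in the libraries labelled Isl1cKO, and the shared Smad4 at 65.6 ± 0.736 and 63.0 ± 2.18 TPM (SD, n = 2 each). Smad9 and Smad1, effectors of BMP signals, had log2 fold changes of -0.33 and -0.18 and adjusted p-values of 0.423 and 0.589 in limma.

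None of the 10 inhibitors of signalling passed, and their median log2 fold change was 0.006. Pmepa1 measured 48.5 and 43.2 TPM in the controls, against 36.3 and 32.4 TPM in Isl1cKO replicates 1 and 2 (adjusted p-value 0.294 in limma). Smad7 had 11.0 ± 0.516 TPM in control and 11.1 ± 1.05 TPM in the libraries labelled Isl1cKO (SD, n = 2 each). Tgif1, a repressor of Smad-driven transcription, had means of 47.9 and 61.4 TPM and an adjusted p-value of 0.471 in limma. Fkbp1a, which holds type I receptors inactive, had means of 323 and 284 TPM and an adjusted p-value of 0.477 in limma.

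Genes studied downstream of Gdf11 in neural tissue were measured in the same way. Atoh7, the proneural gene required for ganglion cells, stood at 1025 and 1352 TPM in the controls, against 1058 and 1458 TPM in Isl1cKO replicates 1 and 2, overlapping between the groups. Cdkn1b, a cell cycle inhibitor, read 133 ± 15.0 TPM in control and 133 ± 0.821 TPM in the libraries labelled Isl1cKO (SD, n = 2 each). None of the 8 tested genes of this role passed, and Cdkn1a, another cell cycle inhibitor, had an adjusted p-value of 0.715 in limma.

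**Figure D5:**
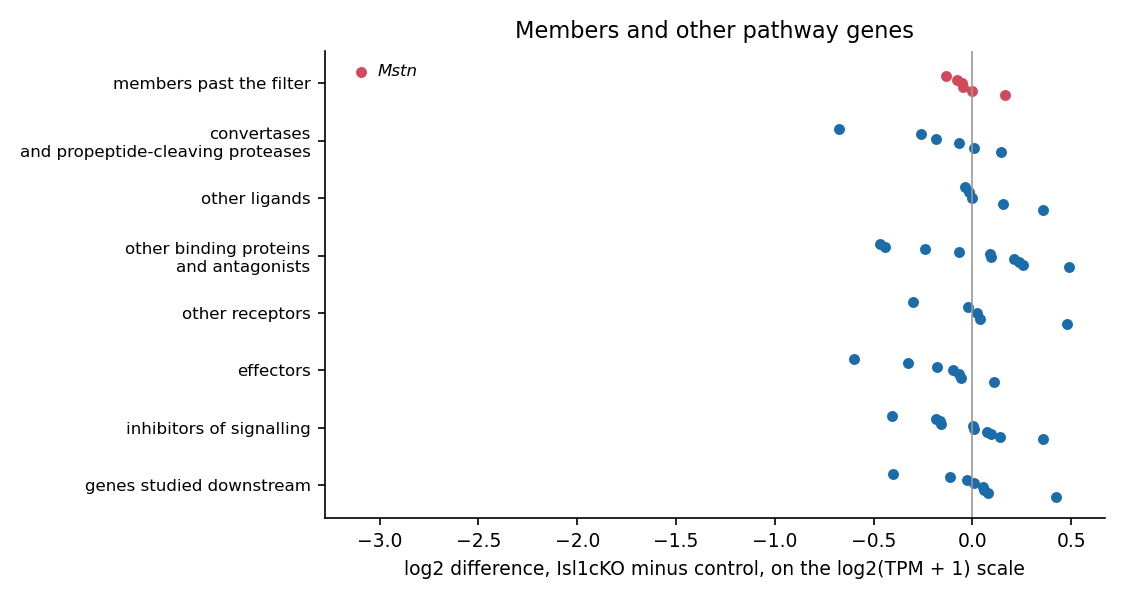
Log2 difference (Isl1cKO minus control, on the log2(TPM + 1) scale) of the 7 genes past the filter (red) and of the 51 tested genes of the pathway list (blue), by role, 1 point per gene. Mstn stands at -3.10, and the listed genes lie between -0.67 and 0.49.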

How the data were processed

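RNA from E13.5 retina was sequenced from poly(A)-selected, strand-specific libraries, per the labels' protocols. Trimmomatic, HISAT2, SAMtools, StringTie, DESeq2 and the build mm10 are named in the submitters' processing notes, without versions or roles; whether strand was used in counting is not given in the sources used here. Per the file headers, the deposited tables give coverage, FPKM and TPM per gene, 1 table per library. They hold no counts, so depth in reads is unknown, and the deposited FPKM and coverage served as alternatives and to derive aligned sequence.

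TPM were summed over repeated gene IDs. For genes with at least 1 TPM in at least 2 libraries, log2(TPM + 1) was modelled on genotype alone by limma 3.58.1 (lmFit, then eBayes; R 4.3.3). P-values are two-sided and Benjamini-Hochberg adjusted over all 13984 tested genes, with a threshold of 0.05, and fold changes on this scale understate the change of low genes. The model was tested on simulated data with changes placed only in genes well above the filter, so changes in genes near it were not covered. A count test could not be run on these units.

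The 10 genes, the pathway list and the marker lists were chosen with earlier results of these data known. Besides the 10 genes and Isl1, the genes named were those of the pathway list past the threshold and the 3 of each role with the largest change, the neighbours next to Mstn or past the threshold, the 5 profiles nearest to Mstn and the first 3 of each marker list. Some genes that this rule names are not reported here. Others, such as Smad3, Smad4, Smad7, Bmp1, Tgfb2, Atoh7, Cdkn1b, Irx2, Myog, Hibch, Inpp1, Mfsd6 and Pms1, were added after their values were seen. Alternatives changed the pseudocount, filter, unit, scaling, variance trend, replicate block and threshold, or left out repeated genes or 1 replicate. On FPKM the added constant and the filter were 1 FPKM. Promoter windows are RefSeq's and transcript lengths are those of GENCODE M21, both on GRCm38.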

Additional observations from a re-analysis of the deposited data

How the results depend on the processing

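The Mstn difference ranged over the alternatives from -5.89 (pseudocount of 0.1) to -1.95 (FPKM, with 1 FPKM added), and this range follows the weight of the added constant. Gdf11 stayed between 0.12 and 0.22. Scaling Tgfbr1 by coverage and the neighbour distance of 100 kb were chosen after seeing the data. The 69 genes past the threshold over all genes were 44 at a pseudocount of 0.1, 15 with no filter beyond a value above 0, 127 on FPKM, 110 with a mean-variance trend and 12 at an adjusted p-value under 0.01, and between 3 and 136 when each replicate was left out, where the lone sample is assumed to vary like the other group. That count was 4 without control replicate 1, 3 without control replicate 2, and for the libraries labelled Isl1cKO it was 136 without replicate 1 and 17 without replicate 2. The cause of these shifts was not tested. No other pathway gene passed in limma under any of these settings. The 1 neighbour of Mstn past the threshold became 0 at a pseudocount of 0.1, with no filter, at a filter of 5 TPM (which removes it) and at an adjusted p-value under 0.01, and between 0 and 1 when each replicate was left out. Of the 5 profiles most like Mstn, 0 were shared at a pseudocount of 0.1, 1 on FPKM, and between 3 and 4 when each replicate was left out. Isl1 had log2 fold changes from 0.01 to 0.54 over the left-out replicates and never passed.

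Replicate numbers were not used to pair the libraries, as the labels name no shared litter or day and there are 2 pairs. The deviations from the group means correlated at 0.126 across genes, which cannot settle whether the libraries were paired. With the replicate block 265 genes passed over all genes, 0 of the other pathway genes and 1 neighbour of Mstn. Depth in reads is unknown, which leaves the Mstn values of the libraries labelled Isl1cKO, at 813 and 210 aligned bases, without an interval.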
